A study of Mus musculus with 4 samples.

Results

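E2F1 occupancy was examined at the promoters of 57 genes of the DNA damage response and of DNA repair. A gene counted as occupied where a peak overlapped the window from 1000 bp upstream to 500 bp downstream of any of its transcript starts in the GENCODE M1 annotation of mm9. By this rule 13 of the 57 genes (22.8%) had an E2F1 peak, with 1 peak each and no peak shared between listed genes, so that 13 of the 4523 peaks of the data set and 13 of its 4090 promoter peaks are described here. Among the 22181 protein-coding genes outside the list, 19.0% had a promoter peak. E2F1 was immunoprecipitated from fixed chromatin of mouse embryonic stem cells (ESCs), with 2 biological replicates of ESCs kept in serum with LIF and 2 of ESCs kept in serum-free medium with LIF and 2 inhibitors (2i), PD0325901 against MEK and CHIR99021 against GSK3. Cells had been adapted to their medium for more than 20 days. The ESC line and its genotype are not given for these samples in the sources used here, and occupancy alone offers no marker check of cell identity. The comparison asks whether E2F1 binds these promoters differently in the 2 culture states. The values are normalized counts, the authors' reads per peak divided by 1 scaling factor per sample.

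E2F1 is a transcription factor that binds upstream of genes needed for S-phase, and the RB family proteins hold it in check until cyclin-dependent kinases phosphorylate them. Many repair genes are known E2F targets, since replication itself creates breaks, stalled forks and mismatches that must be mended in the same phase. In ESCs, which spend most of their cycle in S-phase, homologous recombination carries much of the repair of double-strand breaks.

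The 13 occupied genes were spread over most repair pathways. Homologous recombination, which copies the sister chromatid to mend a double-strand break, had 4 of 15 genes with a peak (Brca2, Nbn, Rbbp8 and Wrn). The Fanconi anemia pathway, which unhooks DNA crosslinks, had 2 of 11 (Fance and Fancf). Damage checkpoint signaling had 2 of 11 (H2afx and Rad17), and base excision and single-strand break repair had 2 of 6 (Lig3 and Ung). Mismatch repair had 1 of 3 (Msh6), non-homologous end joining 1 of 4 (Lig4) and DNA damage tolerance 1 of 2 (Polh). None of the 5 nucleotide excision repair genes (Ercc1, Ercc2, Ercc3, Xpa and Xpc) had one.

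The 44 genes without a promoter peak included the kinases of the checkpoint, Atm, Atr, Chek1 and Chek2, and Brca1 with its partners Bard1, Palb2 and Brip1. Rad51c, Xrcc2, Xrcc3, Rad54l, Rad50, Mre11a, Blm and Exo1 of the recombination genes also had none. So did Fanca, Fancb, Fancc, Fancd2, Fancg, Fanci, Fancl and Fancm, and the checkpoint genes Atrip, Rad1, Rad9a, Hus1 and Trp53bp1. The remaining genes without a peak were Msh3 and Pms2, Parp1, Parp2, Neil3 and Xrcc1, Xrcc4, Xrcc5 and Xrcc6, and Rad18. Measured from any transcript start, the nearest peak of these 44 genes lay at least 9076 bp away (Rad9a), with a median of 70909 bp. A peak entered the table only when it was called in both replicates of a culture state, and the table holds no signal outside peaks, so the level of E2F1 at these 44 promoters is unknown.

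An E2F recognition motif was then searched for around the transcript starts. The motif was taken as any of TTTCCCGC, TTTGGCGC, TTTCGCGC and TTTGCCGC on either strand, matches on opposite strands being free to share letters, within 200 bp of a protein-coding transcript start. It was found at 20 of the 57 repair genes (35.1%) and at 1058 of the 22181 protein-coding genes outside the list (4.77%). The sites below are shown because they set genes with and without a peak side by side. Each run is the 30 bases of mm9 around a match, read 5′ to 3′ on the strand of the gene, with the match in capitals, and GCGGGAAA is TTTCCCGC read on the opposite strand. Msh6, Wrn, Brca2 and Ung had a peak, and Chek1, Bard1, Fancd2 and Atm had none.

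Msh6: ctcctcccgacTTTCCCGCcagcggcggcc
Wrn: gagggttgtgaTTTCCCGCgactcacccgc
Brca2: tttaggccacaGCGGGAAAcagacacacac
Ung: gcgggagctgtTTTGCCGCgaaaagcccac
Chek1: agcaggttttgGCGGGAAAagctgtgcatt
Bard1: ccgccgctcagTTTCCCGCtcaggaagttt
Fancd2: ccgttcttctaGCGGGAAAgtcgaaaacga
Atm: gatccgtgcacGCGGGAAAaggcgaagcga

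These windows lie on the plus strand at chr17:88374394-88374423 for Msh6, chr5:151325017-151325046 for Brca2, chr5:114580875-114580904 for Ung and chr6:113481688-113481717 for Fancd2. On the minus strand they lie at chr8:34496111-34496140 for Wrn, chr9:36534182-36534211 for Chek1, chr1:71149737-71149766 for Bard1 and chr9:53344700-53344729 for Atm. Relative to the nearest protein-coding transcript start, with negative positions upstream, the match was centred at 18 bp in Msh6, -127 bp in Wrn, -174 bp in Brca2 and -46 bp in Ung. In the genes without a peak it was centred at -27 bp in Chek1, -32 bp in Bard1, 4 bp in Fancd2 and -2 bp in Atm. The matches at Msh6 and Wrn lay inside the E2F1 peak, whereas that of Brca2 lay 54 bp outside its peak and that of Ung 79 bp outside. The only other occupied gene with a match, Fance, had it at an internal transcript start, 2037 bp outside its peak.

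Among the listed repair genes, peaks were about as frequent with a motif as without one. Of the 20 with a motif, 5 had a peak (25%), and of the 37 without a motif, 8 had one (21.6%). Outside the list, 31.9% of the 1058 genes with a motif had a promoter peak against 18.3% of the 21123 genes without. A further 89 repair genes, taken up at the end of these results, carried a motif in 14.6%. Of their 13 genes with a motif 38.5% had a peak, against 22.4% of the 76 without. These shares are descriptions with no test, and a gene with more annotated starts has more chances of a match. An alternative chosen after the data were seen dropped the first T of each motif. Then 39 listed repair genes had a match and 10 of them a peak (25.6%), against 3 of 18 without a match (16.7%). Among the 89 further genes, the shares with a peak were 39.5% with a match and 13.7% without.

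**Figure D1:**
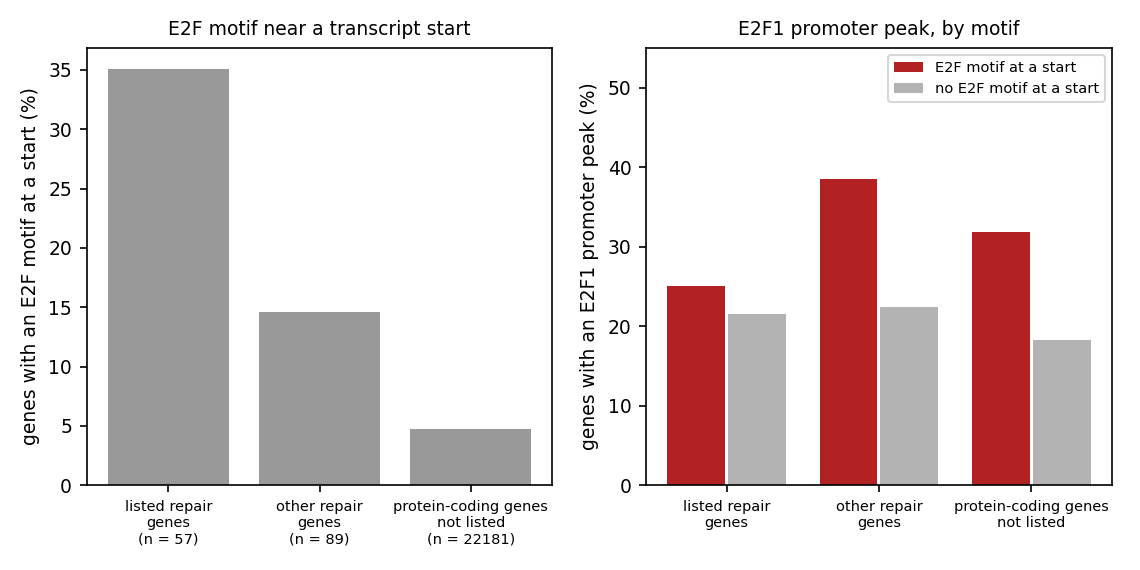
Left, percentage of genes with an E2F motif within 200 bp of a protein-coding transcript start, for the 57 listed repair genes, 89 further repair genes and all protein-coding genes not listed. Right, percentage of genes with an E2F1 promoter peak among genes with the motif (red) and without it (grey). The listed repair genes carry the motif in 35.1% and have similar peak shares with (25%) and without it (21.6%). In the 89 further repair genes these peak shares are 38.5% and 22.4%.

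Within the peaks the motif of 8 letters was rare. In the 400 bp around the peak centre it was present in 1 of the 13 repair gene peaks (Msh6) and in 5.03% of the 4077 other promoter peaks, and anywhere in the peak in 2 of 13 (Msh6 and Wrn) and in 6.62%. The 7-letter motifs, without the first T, were present near the centre of 5 of the 13 peaks (38.5%) and of 29.8% of the other promoter peaks. The repair gene peaks had a median GC content of 72.8%, from 66.0% at H2afx to 77.4% at Wrn, against 74.7% for the other promoter peaks. Their observed to expected CpG ratio had a median of 0.954, against 0.955. In length they were also near the other promoter peaks, with a median of 476 bp against 487 bp.

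The peaks differed in how they sat on their genes. The centre lay downstream of the nearest start of the repair gene itself at 8 of the 13 peaks, by 29 bp at Fance to 433 bp at H2afx. It lay upstream at the other 5, at -43 bp in Rbbp8 to -449 bp in Rad17. At Rbbp8 the nearest start was an internal one, as the gene begins at 11791785 on chromosome 18 and the peak at 11815655. At H2afx the peak was the longest, 1113 bp, and ran from 123 bp upstream to 990 bp downstream of the start, with its centre in the coding sequence. The centre was also in coding sequence at Fancf, Msh6 and Fance, in an untranslated region at Brca2 and Nbn, and in an intron at Lig3, Rbbp8 and Ung. At 6 of the 13 peaks the promoter window of a gene on the opposite strand was overlapped as well, which was the case for 15.9% of the other promoter peaks. The partners were Gas2 at Fancf, Gm11423 at Lig3, Purg at Wrn, Taf9 at Rad17, Abhd13 at Lig4 and Xpo5 at Polh. For these 6 peaks the signal cannot be assigned to either gene. The peak at Rad17 covered the start of Taf9, at -284 bp from the start of Rad17, and ended short of the start of Rad17 itself, at -211 bp.

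**Figure D2:**
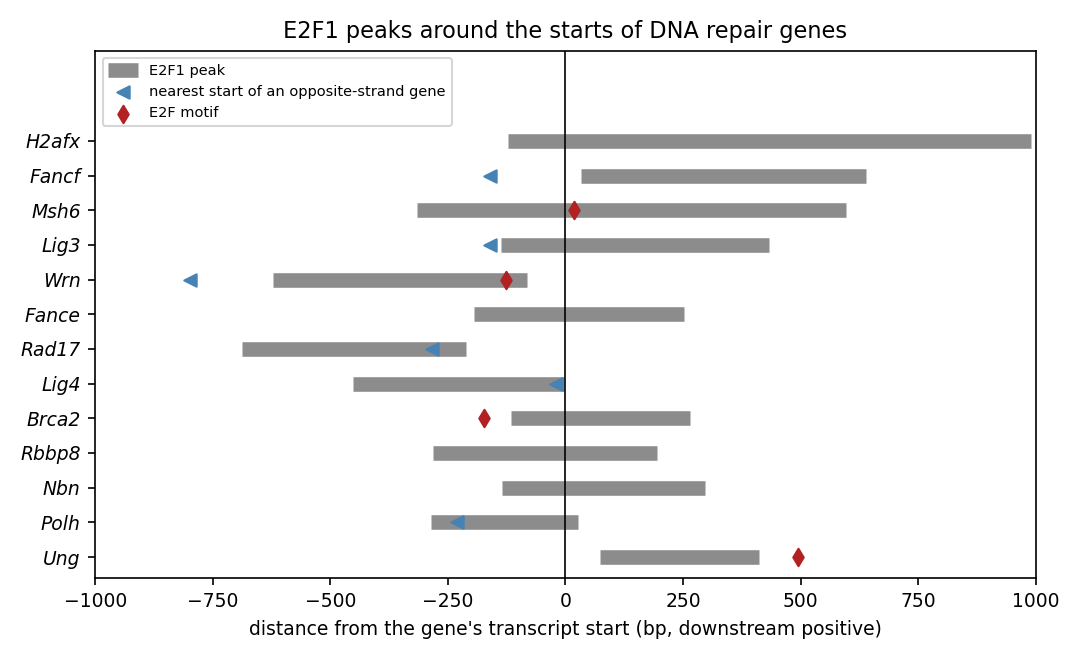
Span of each E2F1 peak (grey bar) on the strand of the gene, in bp from the transcript start nearest the peak centre, with E2F motifs (red diamonds) and the nearest start of an opposite-strand gene (blue triangles). The peaks of Rad17, Wrn and Lig4 lie wholly upstream of the start and those of Fancf and Ung wholly downstream, and red diamonds fall inside a bar only at Msh6 and Wrn; the motif of Fance lies outside the plotted range.

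Reads in peaks ranged from 248878 in serum replicate 1 to 710519 in 2i replicate 1, and a single read was worth a normalized count of 1.74 in the former and of 0.560 in the latter, so that serum replicate 1 was the noisiest in counting terms. Serum and 2i ESCs were compared at all 4523 peaks with limma, on log2(normalized count + 1) and with positive differences for higher signal in serum, and calls required both a log2 fold change beyond 1 and an unadjusted p under 0.05. Adding 1 shrinks the fold changes where signal is low. An exact permutation test of 2 against 2 samples cannot give a p below 0.333, so each p relies on the spread limma shares across peaks.

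E2F1 signal at the repair genes ran from the weakest promoter peaks up to H2afx, which lay above 89.9% of the other promoter peaks. The mean normalized count over the 4 samples had a median of 72.8 at the 13 peaks, with quartiles of 35.6 and 108, against 65.4 at the 4077 other promoter peaks, with quartiles of 38.2 and 114. The order of the medians turned without serum replicate 1, at 64.5 against 65.9, and among peaks with a mean of at least 50, at 91.8 against 98.1. Above the upper quartile of the other promoter peaks were 3 of the 13, at H2afx, Fancf and Msh6, and below the lower quartile were 4, at Rbbp8, Nbn, Polh and Ung. Per kb of peak length the medians were 146 and 128. The order of the 13 peaks was alike in all samples, with Spearman's rho between 2 samples from 0.82 to 0.94 (across 13 peaks that share their length and sequence between samples, so without a p).

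No repair gene peak was called by limma with its variance trend (without the trend 1 was, at Ung), against 10.3% of all 4523 peaks and 9.52% of the 4077 other promoter peaks. An unadjusted limma p under 0.05, at any fold change, was reached by 1 of the 13, at Lig3, against 17.8% of all peaks. A Benjamini-Hochberg adjusted p under 0.05 together with the fold change threshold was reached by 1.46% of all peaks and 0 of the 13. The log2 fold changes ran from -1.12 at Ung to 0.42 at H2afx, 6 positive and 7 negative, with a median of -0.11 against -0.04 for the other promoter peaks. This order turned without serum replicate 2, at 0.10 against -0.02, without 2i replicate 1, at -0.01 against -0.04, and among peaks with a mean of at least 50, at 0.14 against 0.03. Of the 13, 9 (69.2%) lay within 0.5 of 0 on the log2 scale, against 63.8% of the other promoter peaks. The replicate values of serum and 2i ESCs did not overlap at 6 of the 13 peaks (4 with serum above 2i, 2 with 2i above serum), against 49.3% of all peaks and 48.8% of the other promoter peaks. At the background share of 10.3%, little more than 1 of 13 peaks would be called.

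**Figure D3:**
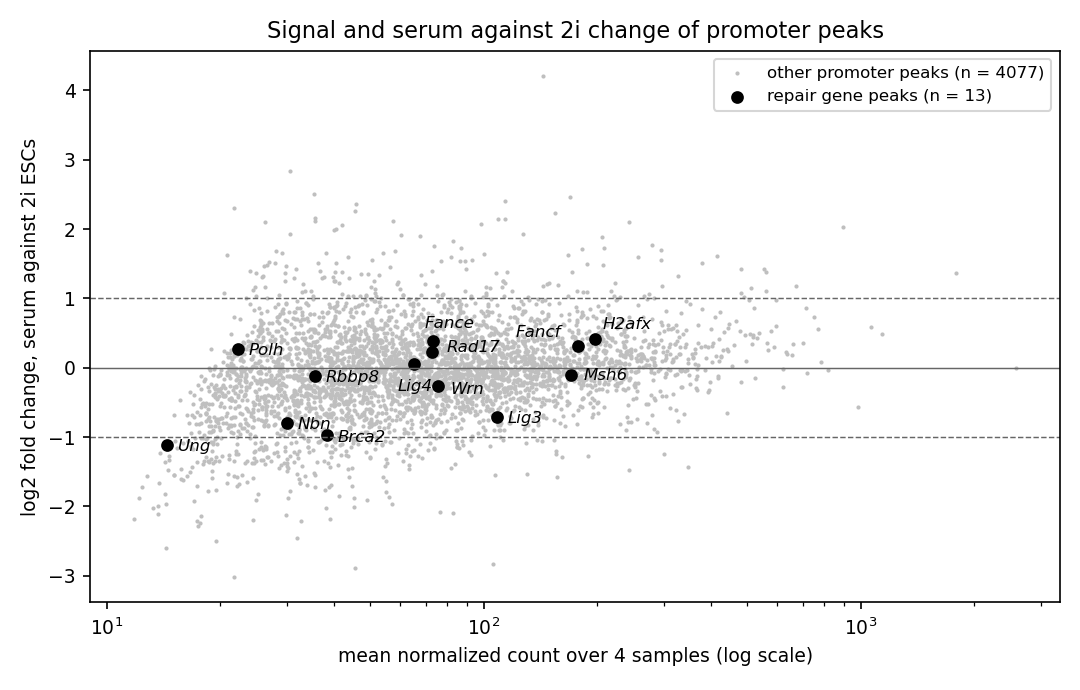
Log2 fold change between serum and 2i ESCs (positive, higher in serum) against the mean normalized count over 4 samples (log axis) for the 13 repair gene peaks (black, named) and the 4077 other promoter peaks (grey); dashed lines mark the fold change threshold of the call. Only Ung lies past a dashed line, at -1.12, and the mean signal runs from 14.4 at Ung to 196.7 at H2afx.

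Among the recombination genes, Brca2 loads the recombinase onto single-stranded DNA. Its peak (chromosome 5, 151325089 to 151325470) held 13.9 and 38.1 in the serum replicates, from 8 and 40 reads, and of 71.1 and 30.3 in the 2i replicates, from 127 and 29 reads, replicate 1 first here and in what follows. Serum replicate 1 was lowest and 2i replicate 1 highest, and the culture states overlapped. On the log2 scale limma gave -0.97 ± 0.55 (SE, adjusted p = 0.380), and the difference ran from -1.67 to -0.28 with each sample left out in turn. It shrank to -0.28 without serum replicate 1 and to -0.37 without 2i replicate 1, so no single library decides its size. Without serum replicate 2 (-1.67) or without 2i replicate 2 (-1.58) the peak would be called higher in 2i. In these fits and those below with a sample left out, a culture state with a single sample is assumed to vary like the other.

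Nbn, a subunit of the complex with Mre11a and Rad50 that senses double-strand breaks, had a peak on chromosome 4 from 15884980 to 15885410. It held 10.5 and 38.1 in the serum replicates and 37.0 and 34.4 in the 2i replicates. Here 3 samples lay close together and serum replicate 1, with 6 reads, lay apart. The log2 difference, -0.79 ± 0.57 (SE, limma adjusted p = 0.497), became 0.09 without serum replicate 1 and -1.68, past the call, without serum replicate 2. No peak was in the table at Mre11a or Rad50.

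Rbbp8 (CtIP) starts the resection of broken ends and Wrn is a helicase of the RecQ family. The Rbbp8 peak (chromosome 18, 11815655 to 11816131) was nearly level, with 33.1 and 35.3 in serum against 39.7 and 34.4 in 2i and a log2 difference of -0.11 ± 0.38 (SE). At Wrn (chromosome 8, 34496081 to 34496621) the values were 61.0 and 76.3 in serum and 89.0 and 75.1 in 2i. The culture states overlapped at both peaks, and the log2 difference at Wrn, -0.26 ± 0.30 (SE, limma adjusted p = 0.705), was smaller than its error. With each sample left out in turn the difference ran from -0.21 to -0.01 at Rbbp8 and from -0.42 to -0.10 at Wrn.

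Fancf and Fance belong to the core complex that attaches ubiquitin to the Fancd2 and Fanci proteins. The Fancf peak (chromosome 7, 59116999 to 59117605) was the second strongest of the 13 and the strongest per kb, at 293. Its normalized counts were 195 and 199 in serum and 171 and 146 in 2i, from 112 to 305 reads. Both serum values lay above both 2i values, but the log2 difference of 0.32 ± 0.24 (SE, limma adjusted p = 0.537) did not pass the test. Fance (chromosome 17, 28450394 to 28450842) showed the same order at lower signal, with 87.1 and 78.2 in serum against 73.9 and 53.2 in 2i, or 0.39 ± 0.31 on the log2 scale (SE, limma adjusted p = 0.549), with a range of 0.16 to 0.62 when each sample was left out.

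H2afx encodes the histone variant whose phosphorylation marks chromatin around a break. It had the strongest of the 13 peaks (chromosome 9, 44142675 to 44143788), above 89.9% of the other promoter peaks, although per kb of its long peak it fell behind Fancf, Lig3 and Msh6, at 177. Its values were 268 and 185 in serum and 165 and 169 in 2i, from 154 to 294 reads. All serum values were higher, by the narrow gap between serum replicate 2 and 2i replicate 2. The log2 difference of 0.42 ± 0.26 (SE, limma adjusted p = 0.433) was the highest of the 13 and ran from 0.15 without serum replicate 1 to 0.68 without serum replicate 2.

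Rad17 loads the sliding clamp of Rad1, Rad9a and Hus1 that activates ATR. The peak at Rad17 and Taf9 (chromosome 13, 101421225 to 101421701) had 104.5 and 56.2 in serum and 70.0 and 60.5 in 2i, with the serum replicates on either side of both 2i replicates. Its log2 difference of 0.23 ± 0.35 (SE) turned to -0.21 without serum replicate 1. None of the clamp genes had a peak.

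Msh6 recognizes mismatched bases as part of a heterodimer. Its peak (chromosome 17, 88374075 to 88374987) was the third strongest of the 13 and held 204 and 128 in serum and 188 and 162 in 2i, from 117 to 335 reads. Both 2i values lay between the serum values. The log2 difference was -0.11 ± 0.28 (SE, limma adjusted p = 0.884), and it turned to 0.23 without serum replicate 2. Thus the 1 peak of the 13 with an E2F motif near its centre differed by less than the spread between its serum replicates.

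Lig3 is a DNA ligase that seals single-strand breaks, together with Xrcc1 in the nucleus. Its peak (chromosome 11, 82594568 to 82595137) had 74.9 and 87.7 in serum and 161 and 110 in 2i, from 43 to 288 reads. Both 2i values lay above both serum values. By limma the log2 difference was -0.71 ± 0.29 (SE, unadjusted p = 0.0315, adjusted p = 0.233), short of the fold change threshold, and it ran from -0.98 to -0.43 with each sample left out. The unadjusted limma p was 0.123 without serum replicate 1, 0.0461 without serum replicate 2, 0.241 without 2i replicate 1, 0.0146 without 2i replicate 2 and 0.0659 by eBayes without a trend. The 386 peaks on chromosome 11 had a median log2 difference of -0.24, against -0.03 in the whole table, and with each chromosome centred on its own median the value at Lig3 was -0.47 with an unadjusted limma p of 0.084; the part of the chromosome in this difference was not tested further.

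Ung removes uracil from DNA. Its peak (chromosome 5, 114580469 to 114580807) was the weakest of the 13, with a mean above 0.319% of the other promoter peaks. It held 12.2 and 5.72 in serum, from 7 and 6 reads, and 15.7 and 24.0 in 2i, from 28 and 23 reads. Both 2i values were higher. The log2 difference of -1.12 ± 0.59 (SE, limma unadjusted p = 0.0843, adjusted p = 0.347) was past the fold change threshold but not past the p. With limma's eBayes run without a trend, the same 4 samples gave an unadjusted p of 0.0291 and Ung was called higher in 2i. The difference ran from -1.60 without serum replicate 1 to -0.63 without serum replicate 2, was called in the fit without serum replicate 1, and became -0.30 after cyclic loess normalization and -0.73 with a pseudocount of 8, both inside the threshold.

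Lig4 joins ends in non-homologous end joining, and Polh copies past ultraviolet damage. The peak at Lig4 and Abhd13 (chromosome 8, 9977689 to 9978137) had 67.9 and 63.9 in serum and 51.5 and 78.2 in 2i, so that the 2i replicates lay on either side of both serum replicates, with a log2 difference of 0.05 ± 0.33 (SE). The peak at Polh and Xpo5 (chromosome 17, 46339548 to 46339861) was weak, with 26.1 and 22.9 in serum and 21.3 and 18.8 in 2i, from 15 to 38 reads. Both serum values were higher by a narrow gap, and the log2 difference of 0.28 ± 0.45 (SE) was smaller than its error and became 0.62 after cyclic loess normalization, with an unadjusted limma p of 0.204.

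**Figure D4:**
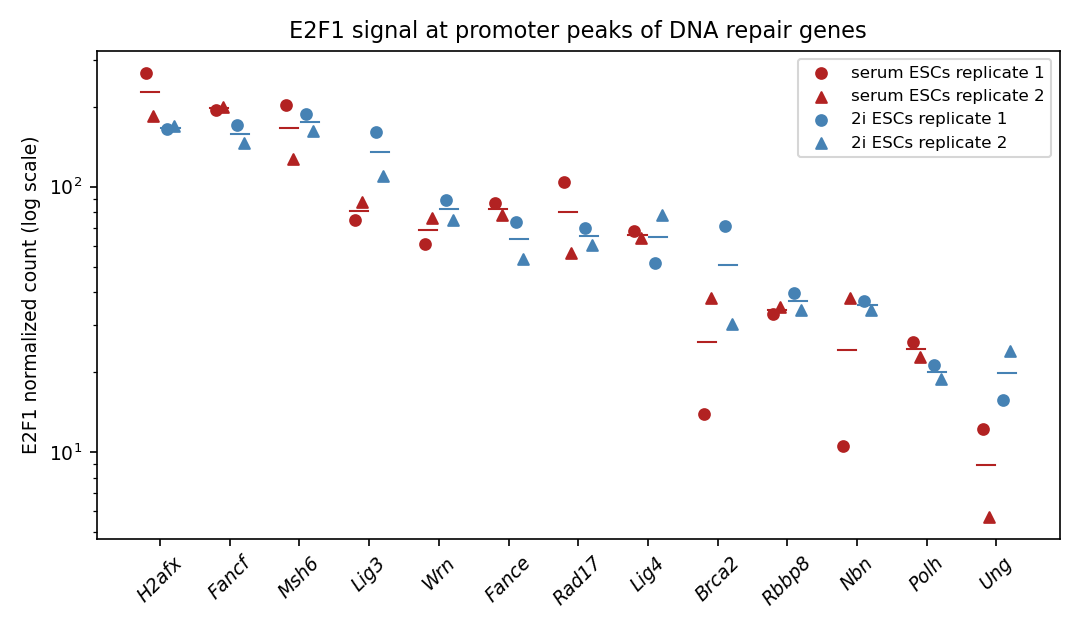
Normalized count of E2F1 (log axis) at the 13 repair gene peaks, ordered by mean signal, in serum ESCs (red) and 2i ESCs (blue), with circles for replicate 1, triangles for replicate 2 and short lines at the mean of each culture state. Serum replicate 1 lies far below the other samples at Nbn, where it is 10.5, and the culture states are apart with 2i higher at Lig3 and Ung.

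The spread between replicates differed among these peaks. Between the serum replicates the absolute log2 difference had a median of 0.32 over the 13 peaks, and between the 2i replicates 0.22, against 0.34 and 0.32 at the other promoter peaks. The SD of the log2 difference over the peaks was 0.80 in serum and 0.46 in 2i, against 0.60 and 0.54. The difference was widest at the weak peaks of Nbn (-1.77, serum replicate 1 minus serum replicate 2), Brca2 (-1.39 in serum and 1.21 for 2i replicate 1 minus 2i replicate 2) and Ung (0.97 in serum). Other weak peaks were narrow, with 0.18 in serum and 0.17 in 2i at Polh, and -0.09 and 0.20 at Rbbp8. In serum it was 0.88 at Rad17 and 0.67 at the strong peak of Msh6. At Fancf it was -0.03 in serum.

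A further list of 89 repair genes that are not among the 57 gave 22 genes with a promoter peak (24.7%), with 23 peaks. Of these 23, 1 was called, higher in 2i, and 0 higher in serum, against 9.52% of the 4077 promoter peaks outside the 57 genes. The called peak, named after its values were seen, was at Timeless, a replication fork protein, with 13.9 and 18.1 in serum against 43.7 and 27.1 in 2i, or -1.07 ± 0.47 on the log2 scale (SE, limma adjusted p = 0.265). The median log2 fold change of the 23 peaks was 0.13 and their median mean normalized count 90.6, and 12 of the 23 (52.2%) overlapped the window of an opposite-strand gene.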

How the data were processed

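The authors deposited normalized counts, here a signal per peak and sample. Per the methods, BWA placed the reads on mm9, duplicates and blacklisted regions were discarded, macs2 peaks of each library were intersected between biological replicates, the serum and 2i sets were merged, and bedtools counted reads. Sites called in a single replicate are thus missing. Within a sample the values were whole multiples of 1 step (within 0.02 of a read), apart from 9 serum values of exactly 2, and the step gave the reads quoted. As the values are normalized, they were tested on the log2 scale with limma, without a count model.

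Peaks were placed on GENCODE M1 (NCBIM37, mm9) with the coordinates as deposited, whose counting from 0 or 1 is not stated. Rad9a is listed there as Rad9. The fit used limma 3.58.1 in R 4.3.3 with a trend and no block, over all 4 samples, and was tested on simulated data. Annotation and figures used Python 3.11.15. All members with a peak were named, with full statistics for called peaks, the 5 strongest and the 3 highest and lowest fold changes. The members and lists were chosen with earlier results of these data known. Alternatives were another pseudocount, filter, scaling, window, block or trend, and leaving out each sample.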

Additional observations from a re-analysis of the deposited data

How the results depend on the processing

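With 2 replicates, and 6 and 7 serum reads at Ung, the call there depended on how limma estimated the variance, and the promoters without a peak carry no value. Against 466 called peaks in the table, 188 were called among peaks with a mean of at least 50, and 378 to 674 were called with 1 sample left out, the lone sample of a culture state being assumed to vary like the other state. Of the called peaks 46.8% were higher in serum (218 against 248), 36.3% after rescaling to the same total, 58.3% after cyclic loess and 64.4% with the minimum mean. No repair gene peak was called higher in serum in any fit run. Higher in 2i, 1 was called by eBayes without trend (Ung), and 0 to 2 with 1 sample left out. The labels do not say whether same-numbered samples were prepared together. Across peaks the deviations of same-numbered samples had a correlation of 0.0483, which cannot decide it. The replicate block gave 504 called peaks and 0 at repair genes. With the block the unadjusted limma p at Brca2 was 0.0394, against 0.106 without it, at the same log2 fold change of -0.97. The median log2 fold change of the repair gene peaks, -0.11, became 0.14 with the minimum mean, -0.20 after rescaling and -0.23 centred by chromosome, and ran from -0.21 to 0.10 with 1 sample left out. That of the other promoter peaks, -0.04 also when centred by chromosome, became 0.03 with the minimum mean and -0.13 after rescaling, and ran from -0.04 to -0.02. The fold change at Lig4 became -0.04 after rescaling and ran from -0.24 to 0.35 with 1 sample left out, that at Rad17 from -0.21 to 0.68, at Nbn from -1.68 to 0.09 and at Msh6 from -0.44 to 0.23. The cause of these moves was not tested. The median signal of 72.8 became 91.8 with the minimum mean (98.1 at the other promoter peaks) and 146 per kb (128), and ran from 64.5 to 75.4 (64.8 to 65.9). With windows of 500 bp either side, peak centres or protein-coding transcripts only, the number of genes with a peak was also 13. A motif was in 1 peak near its centre, in 2 anywhere in the peak and in 5 with 7 letters, and at 39 genes with 7 letters. edgeR and DESeq2 were not run.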
